A study of Mus musculus with 14 samples.

Results

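The glycolysis isozyme genes examined here are Slc2a1, Hk1, Hk2, Pfkl, Pfkm, Pfkp, Aldoa, Pgk1 and Ldha, which encode 1 glucose transporter and 8 isozymes of 5 steps of glycolysis and lactate formation. They were chosen by name, and 9 of 9 were found among the 22007 gene identifiers of the deposited expression table. All 9 passed the filter on low values (1 FPKM or more in 3 or more libraries) and were among the 12251 genes tested, but Hk2 passed only through the transgenic libraries, since its highest deposited FPKM in wild-type libraries was 0.268. RNA was sequenced from microdissected kidney cortex of mice with the strain background C57BL/6. The groups were wild-type mice on regular chow (WT, 3 libraries), GGT-HIF1A_M3 transgenic mice on regular chow (TRACK, 4 libraries), wild-type mice on a vitamin A-deficient diet (WT-VAD, 3 libraries) and transgenic mice on that deficient diet (TRACK-VAD, 4 libraries). Mice were randomized to the diets 2 weeks after weaning and kidneys were taken after 24 weeks. The labels call the libraries biological replicates and describe 4 mice per cohort, so p-values measure the spread between these libraries. In this model the promoter of gamma-glutamyl transferase, an enzyme of the proximal tubule brush border, drives a mutated, constitutively active HIF1A, and no group of transgenic mice with an inactive transgene was analysed here.

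Glycolysis converts glucose to pyruvate in the cytosol, and each of several steps can be carried out by more than one isozyme, encoded by different genes and used in different proportions by different tissues. The hypoxia-inducible factor HIF1 is a transcription factor that binds short DNA elements with the core ACGTG or GCGTG, and genes of glucose uptake and glycolysis are among its best known targets. The proximal tubule, the most abundant epithelium of the cortex, is known for making glucose and burning fatty acids.

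Levels are given as scaled FPKM, that is, the authors' FPKM (fragments per kilobase of transcript and per unit of sequenced reads) divided by a further between-library factor of 0.897 to 1.18. FPKM are per length, so levels of different genes can be set side by side. The depth is unknown from FPKM alone, but the authors' deposited table gives mean normalized counts of 379 for Hk2, the lowest of the 9 genes, to 32756 for Aldoa, the highest. WT and TRACK libraries came from lane 5, all WT-VAD libraries from lane 6, and TRACK-VAD libraries from lane 5 except TRACK-VAD 4 from lane 6, so diet and lane cannot be told apart within wild-type mice. The mouse Hif1a row was similar in WT (27.6 to 31.1 scaled FPKM) and TRACK (23.9 to 31.1), and no source used here says whether transgene reads fall in it. Ndufa4l2, a known HIF1 target, ranged from 2.41 to 2.52 scaled FPKM in WT and from 117 to 138 in TRACK. Library TRACK-VAD 2 stood apart, with a correlation to TRACK-VAD 3 of 0.957 where all pairs in the other groups were at or above 0.988, and TRACK-VAD 1 had a lowest correlation in its group of 0.975.

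Promoters of 5 of the genes are shown because these 5 hold the largest rise among the hexokinases (Hk2), the largest and the smallest change among the phosphofructokinases (Pfkp and Pfkm), and the steps that form ATP and lactate (Pgk1 and Ldha). Each is the 250 bases before the first-listed RefSeq transcription start in GRCm38.p6, written 5′ to 3′ in the direction of the gene. Capitals mark ACGTG or GCGTG on either strand, so that CACGT and CACGC are the same letters read on the other strand and CACGTG is 2 overlapping matches. The windows are chr6:82774455-82774704 on the minus strand (Hk2), chr13:6648772-6649021 on the minus strand (Pfkp), chr15:98092339-98092588 on the plus strand (Pfkm), chrX:106186850-106187099 on the plus strand (Pgk1) and chr7:46845554-46845803 on the plus strand (Ldha).
Hk2: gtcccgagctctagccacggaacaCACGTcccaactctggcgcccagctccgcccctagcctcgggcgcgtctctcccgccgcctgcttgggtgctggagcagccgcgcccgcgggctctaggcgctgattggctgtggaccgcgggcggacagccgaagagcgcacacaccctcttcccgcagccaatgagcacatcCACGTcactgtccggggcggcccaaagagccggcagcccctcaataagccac
Pfkp: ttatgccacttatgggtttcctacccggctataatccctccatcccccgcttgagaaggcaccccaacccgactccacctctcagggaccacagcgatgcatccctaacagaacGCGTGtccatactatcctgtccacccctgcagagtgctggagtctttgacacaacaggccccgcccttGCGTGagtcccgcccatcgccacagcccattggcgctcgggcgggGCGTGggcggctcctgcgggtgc
Pfkm: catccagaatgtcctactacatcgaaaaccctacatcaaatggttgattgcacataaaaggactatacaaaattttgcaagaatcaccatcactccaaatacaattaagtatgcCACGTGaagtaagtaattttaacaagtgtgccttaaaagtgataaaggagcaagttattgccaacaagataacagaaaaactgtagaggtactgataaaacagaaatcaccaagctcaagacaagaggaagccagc
Pgk1: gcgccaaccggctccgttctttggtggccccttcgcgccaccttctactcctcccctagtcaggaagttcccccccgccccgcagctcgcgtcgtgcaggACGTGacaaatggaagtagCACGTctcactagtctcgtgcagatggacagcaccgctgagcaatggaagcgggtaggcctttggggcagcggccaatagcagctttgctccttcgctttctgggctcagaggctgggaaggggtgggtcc
Ldha: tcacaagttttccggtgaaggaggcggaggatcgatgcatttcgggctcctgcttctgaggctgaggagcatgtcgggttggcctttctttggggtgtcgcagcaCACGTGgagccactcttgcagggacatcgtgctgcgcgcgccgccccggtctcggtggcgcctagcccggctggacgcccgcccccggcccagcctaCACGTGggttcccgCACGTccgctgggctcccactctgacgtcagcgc

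The Ldha window held 5 matches to ACGTG, the Hk2, Pgk1 and Pfkm windows 2 each, and the Pfkp window 3 matches to GCGTG. Among 32851 RefSeq promoter windows of the same length, 16.6% held ACGTG, 28.2% held GCGTG and 38.6% held either. All 9 genes matched this table, with 16 windows between them, and 13 of the 16 held either motif. Some windows of the same gene overlap and share matches. The first-listed windows of Hk1 and Aldoa held none, while the second-listed window of Hk1 held 3 matches to GCGTG. The second-listed and third-listed windows of Aldoa, which overlap, each held 1 match to ACGTG. The 2 matches of Pfkm overlapped as CACGTG, while the 2 matches of Hk2 lay apart. A match describes letters in a window and not a bound site.

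On chow, 7 of the 9 genes were higher in TRACK than in WT and none was lower, where 17% of all genes tested were called (8.86% higher and 8.15% lower). Calls are adjusted p at or under 0.05 in limma, with Benjamini-Hochberg adjustment over all genes tested. The median log2 fold change of the 9 genes was 1.27, against 0.01 over all genes. Without Hk2, which had to differ to pass the filter, 6 of 8 genes were higher with a median of 1.11, and on the deficient diet 6 were higher and 1 lower with a median of 0.84. Pfkp, Hk2, Slc2a1, Pfkl, Pgk1, Ldha and Aldoa were the 7 called, while Hk1 and Pfkm were not. An unadjusted p under 0.05 was found for 8 of 9, against 32.5% of all genes. The libraries of the 2 groups did not overlap for any of the 9, with 8 higher and 1 lower, where 19.3% of all genes were higher without overlap and 18.7% lower. On the deficient diet 7 of the 9 were higher and 1, Pfkm, was lower in TRACK-VAD than in WT-VAD, where 22.1% of all genes were called (11.3% higher and 10.8% lower). All 9 had an unadjusted p under 0.05, against 36.6% of all genes, and groups did not overlap for 7 higher genes and 1 lower gene, against 14.6% and 13.9%. The 2 genotype comparisons use different libraries. In bulk tissue, fewer cells of a type and less RNA per cell cannot be told apart.

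**Figure D1:**
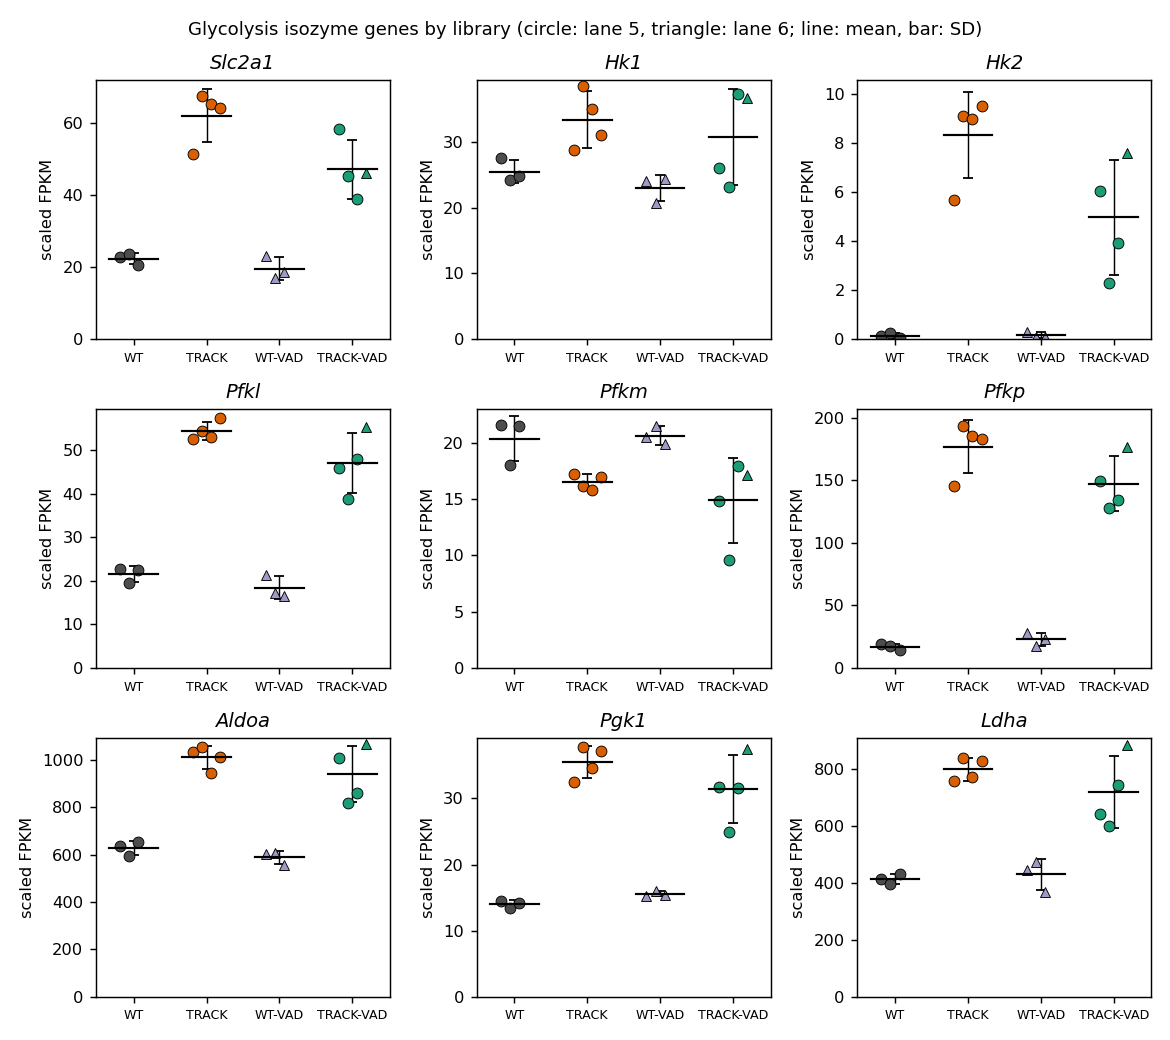
Scaled FPKM of the 9 genes in each of the 14 libraries, by group, with the axis of each panel starting at 0; circles are lane 5, triangles lane 6, the line is the group mean and the bar its SD. In 7 panels the transgenic libraries lie above the wild-type libraries on both diets, whereas Pfkm lies lower and Hk1 libraries overlap on the deficient diet.

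Slc2a1 encodes GLUT1, which carries glucose across plasma membranes, and lies at chr4:119108711-119137983 on the plus strand. It was at 22.7, 23.6 and 20.6 scaled FPKM in WT 1 to 3 and at 51.3, 67.5, 65.4 and 64.1 in TRACK 1 to 4. All TRACK libraries were above all WT libraries, with a log2 fold change of 1.43 ± 0.14 (SE; adjusted p = 1.89e-05, limma), or 2.78-fold between means. On the deficient diet Slc2a1 was at 23.2, 16.9 and 18.6 in WT-VAD and at 58.3, 45.2, 38.8 and 46.2 in TRACK-VAD, again without overlap (log2 fold change 1.22 ± 0.14, SE; adjusted p = 0.000134). Slc2a2, which encodes GLUT2, the transporter through which proximal tubule cells release glucose, was the most abundant of the 4 transporters Slc2a1 to Slc2a4. Its differences by genotype were 0.04 on chow and -0.03 on the deficient diet (log2; adjusted p = 0.885 and 0.904). Slc2a4, the insulin-regulated GLUT4, differed by -0.06 and 0.01 (log2; adjusted p = 0.876 and 0.975), and Slc2a3 was below the filter. The share of Slc2a1 in the summed FPKM of these 4 transporters was 12.3% ± 3.2 (SD, n = 3) in WT, 27.4% ± 5.2 (SD, n = 4) in TRACK, 10.6% ± 1.3 (SD, n = 3) in WT-VAD and 22.4% ± 2.4 (SD, n = 4) in TRACK-VAD.

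Hexokinases phosphorylate glucose and so trap it in the cell. Hk2, the inducible isozyme known from muscle, fat and tumours, lies at chr6:82725025-82774454 on the minus strand and was very low in wild-type cortex and clearly measured in transgenic cortex. It was at 0.111, 0.253 and 0.024 scaled FPKM in WT 1 to 3 and at 5.69, 9.08, 8.98 and 9.50 in TRACK 1 to 4. It was at 0.289, 0.102 and 0.071 in WT-VAD and at 6.05, 2.28, 3.92 and 7.60 in TRACK-VAD. The lowest transgenic library, TRACK-VAD 2, was still well above the highest wild-type library. The log2 fold changes were 3.03 ± 0.26 (SE; adjusted p = 6.07e-06) on chow and 2.28 ± 0.26 (SE; adjusted p = 0.00015) on the deficient diet. These values depend on the pseudocount of 1, since with 0.1 they were 5.30 and 4.28, and the ratio of mean scaled FPKM on chow was 64.3.

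Hk1, the housekeeping hexokinase, lies at chr10:62268855-62379908 on the minus strand. It was at 27.6, 24.2 and 24.8 scaled FPKM in WT and at 28.8, 38.7, 35.1 and 31.2 in TRACK. The groups did not overlap on chow, but the log2 difference of 0.37 ± 0.16 (SE) did not pass the test (adjusted p = 0.118). On the deficient diet Hk1 was at 24.0, 20.8 and 24.4 in WT-VAD and at 26.0, 23.2, 37.3 and 36.8 in TRACK-VAD, and the log2 difference was 0.38 ± 0.16 (SE; adjusted p = 0.0969). Without the between-library factor, whose removal shifts the median gene by 0.15 on chow and 0.18 on the deficient diet (log2), Hk1 was called on both diets (0.54 and 0.58; adjusted p = 0.0128 and 0.00807). It was also called in a fit of only WT and TRACK (adjusted p = 0.0290) and, on the deficient diet, without TRACK-VAD 2 (0.50; adjusted p = 0.030).

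Hk1 made up 94.9% ± 1.3 (SD, n = 3) of summed hexokinase FPKM in WT and 77.1% ± 2.7 (SD, n = 4) in TRACK, and 95.8% ± 0.41 (SD, n = 3) in WT-VAD and 82.5% ± 5.1 (SD, n = 4) in TRACK-VAD. The Hk2 share was 0.491% ± 0.46 (SD, n = 3) in WT, 19.0% ± 2.8 (SD, n = 4) in TRACK, 0.633% ± 0.46 (SD, n = 3) in WT-VAD and 13.0% ± 4.9 (SD, n = 4) in TRACK-VAD. Hk1 thus remained the most abundant hexokinase transcript in every library, with 73.8% or more of the sum. Of the other hexokinase genes, Hkdc1, a hexokinase domain protein, was not called in either genotype comparison (log2 difference -0.35 on chow, adjusted p = 0.0986), but was called lower on chow without TRACK 1 (-0.45; adjusted p = 0.0372). Hk3 was below the filter.

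Phosphofructokinase commits hexose phosphate to glycolysis, and its subunits are named after liver (Pfkl), muscle (Pfkm) and platelet (Pfkp). Pfkp, at chr13:6579768-6648777 on the minus strand, had the largest log2 fold change of the 9 genes in both genotype comparisons with the pseudocount of 1, while with 0.1 Hk2 was larger (5.30 and 4.28, against 3.36 and 2.70 for Pfkp). In the authors' deposited table too, Hk2 had the larger log2 fold changes (4.29 and 3.37, against 3.21 and 2.59 for Pfkp). It was at 19.1, 17.8 and 14.5 scaled FPKM in WT and at 146, 194, 185 and 183 in TRACK, 10.3-fold between means (log2 fold change 3.30 ± 0.16, SE; adjusted p = 2.26e-08). On the deficient diet it was at 27.8, 17.6 and 23.1 in WT-VAD and at 150, 128, 134 and 177 in TRACK-VAD (2.65 ± 0.16, SE; adjusted p = 2.41e-07). Every transgenic library was several times above every wild-type library.

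Pfkl, at chr10:77986947-78010083 on the minus strand, rose by less and by the same amount on both diets. It was at 22.7, 19.5 and 22.5 scaled FPKM in WT and at 52.6, 54.3, 53.1 and 57.4 in TRACK (log2 fold change 1.30 ± 0.11, SE; adjusted p = 7.2e-06). It was at 21.4, 17.2 and 16.6 in WT-VAD and at 45.8, 38.7, 48.0 and 55.4 in TRACK-VAD (1.30 ± 0.11, SE; adjusted p = 1.37e-05). The difference between these 2 genotype effects was 0.01, with a 95% interval from -0.34 to 0.36 (log2).

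Pfkm, at chr15:98092589-98132447 on the plus strand, was the only member below 0 in the genotype comparisons. It was at 21.6, 18.1 and 21.6 scaled FPKM in WT and at 17.3, 16.2, 15.9 and 17.0 in TRACK, without overlap but with a log2 difference of -0.28 ± 0.16 (SE) that did not pass the test (adjusted p = 0.237), although it did in a fit of only those 2 groups (adjusted p = 0.0310). It was at 20.6, 21.6 and 19.9 in WT-VAD and at 14.9, 9.60, 18.0 and 17.2 in TRACK-VAD (-0.48 ± 0.16, SE; adjusted p = 0.0427). This call was lost without the between-library factor (-0.28; adjusted p = 0.102), with a lane term (-0.25; adjusted p = 0.698), with no filter on low values (adjusted p = 0.0642), in a fit of only those 2 groups (adjusted p = 0.159) and without any 1 of WT-VAD 1, 2 and 3 and TRACK-VAD 1 (adjusted p = 0.0761 to 0.114). Without TRACK-VAD 2 the value was -0.30 (adjusted p = 0.0429). Of the markers of skeletal muscle, the tissue for which the M subunit is named, Myh2 and Myh4 were at 0 in every library and the summed level was 1.3 to 6.4 scaled FPKM.

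In WT the 3 subunits were close to equal in their shares of the summed phosphofructokinase FPKM, with Pfkl at 36.5% ± 1.7, Pfkm at 34.5% ± 2.1 and Pfkp at 29.0% ± 3.8 (SD, n = 3). In TRACK the shares were 22.0% ± 1.8, 6.74% ± 0.87 and 71.2% ± 2.6 (SD, n = 4). On the deficient diet they were 29.7% ± 1.6, 33.7% ± 4.4 and 36.6% ± 4.7 in WT-VAD (SD, n = 3) and 22.4% ± 1.0, 7.09% ± 1.5 and 70.5% ± 2.4 in TRACK-VAD (SD, n = 4). The sum of the 3 rose from 59.1 ± 4.0 to 248 ± 22 scaled FPKM on chow and from 61.9 ± 7.0 to 209 ± 30 on the deficient diet (SD, n = 3 and 4). The share of Pfkp was thus above 67% in every transgenic library and below 40% in every wild-type library, although Pfkl transcripts themselves had risen.

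Aldolase splits fructose bisphosphate, and Aldoa, the muscle and housekeeping form, lies at chr7:126795234-126809108 on the minus strand. It was at 637, 594 and 655 scaled FPKM in WT and at 1035, 1054, 945 and 1011 in TRACK, a rise of 0.69 ± 0.10 (log2, SE; adjusted p = 0.000451). It was at 604, 606 and 558 in WT-VAD and at 1009, 820, 859 and 1069 in TRACK-VAD (0.66 ± 0.10, SE; adjusted p = 0.000811). The groups did not overlap on either diet. Aldoc, the brain form, rose from 6.46 to 23.3 on chow (1.70; adjusted p = 7.48e-06) and by 1.19 on the deficient diet (adjusted p = 0.000321).

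Pgk1 encodes phosphoglycerate kinase 1, which forms ATP in the later part of the pathway, and lies at chrX:106187100-106203699 on the plus strand. It was at 14.5, 13.5 and 14.2 scaled FPKM in WT and at 32.4, 37.8, 34.6 and 37.1 in TRACK (log2 fold change 1.27 ± 0.11, SE; adjusted p = 4.93e-06). It was at 15.3, 16.0 and 15.4 in WT-VAD and at 31.8, 25.0, 31.6 and 37.5 in TRACK-VAD (0.95 ± 0.11, SE; adjusted p = 0.000128). The transgenic libraries were all above the wild-type libraries. Pgk2, the testis form, was listed at 0 in every library.

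Ldha encodes the lactate dehydrogenase subunit that favours lactate formation and lies at chr7:46841475-46855627 on the plus strand. It was at 415, 395 and 431 scaled FPKM in WT and at 758, 839, 771 and 827 in TRACK (log2 fold change 0.95 ± 0.13, SE; adjusted p = 0.000258). It was at 447, 475 and 368 in WT-VAD and at 641, 602, 745 and 885 in TRACK-VAD (0.73 ± 0.13, SE; adjusted p = 0.00227). No wild-type library reached the lowest transgenic library. Ldhb, which encodes the heart-type subunit, differed by -0.29 on chow and -0.19 on the deficient diet (log2; adjusted p = 0.0739 and 0.195). On chow Ldhb was called lower in a fit of only those 2 groups (adjusted p = 0.0295) and in the authors' deposited table (-0.41; adjusted p = 0.000162). The Ldha share of the 2 subunits' summed FPKM was 31.4% ± 1.2 (SD, n = 3) in WT and 51.9% ± 2.5 (SD, n = 4) in TRACK, and 34.0% ± 2.0 (SD, n = 3) in WT-VAD and 49.4% ± 4.3 (SD, n = 4) in TRACK-VAD. The 2 subunits were therefore near parity in transgenic cortex, while Ldhb was the larger in all wild-type libraries.

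**Figure D2:**
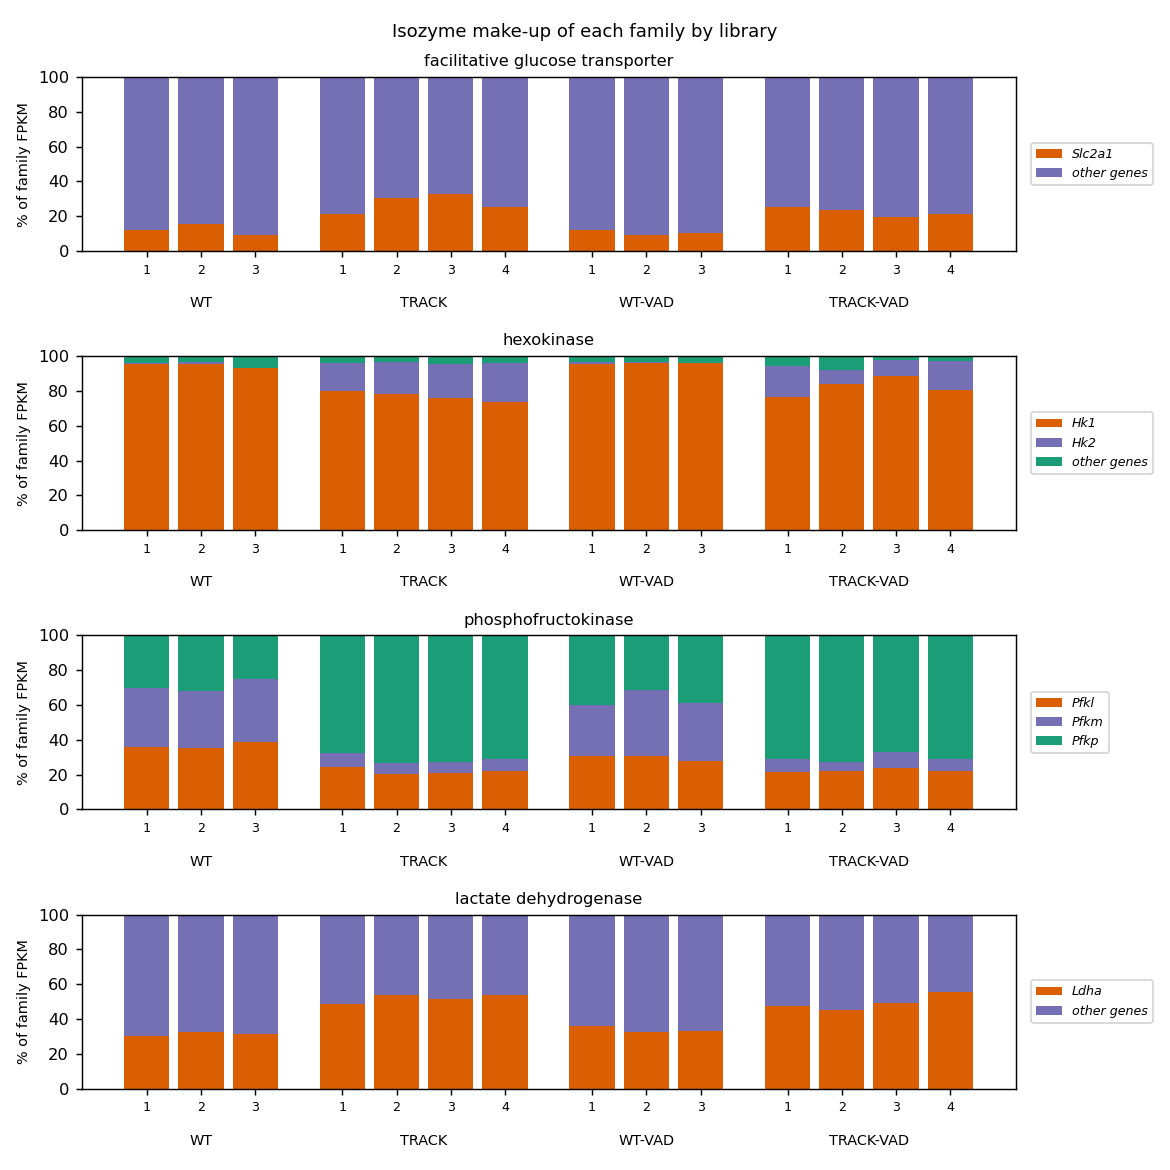
Share of each gene in the summed scaled FPKM of its family, as a percent, for the 14 libraries numbered within their groups, in 4 families and with genes outside the 9 joined as other genes. Pfkp (green in the phosphofructokinase panel) is above 67% in all transgenic libraries, and Hk1 is the largest part of the hexokinase panel in every library.

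Shares within a family do not depend on the between-library factor. Over both diets, shares were tested by exact permutation of genotype labels within diet (two-sided, 1225 arrangements). For Slc2a1, Hk1, Hk2, Pfkl, Pfkm, Pfkp and Ldha the p was 0.000816, the smallest that this design can give, and 0.000933 after Benjamini-Hochberg adjustment over 8 shares, of which these 7 are given. The differences, transgenic minus wild type, were 38.0 percentage points for Pfkp, 17.9 for Ldha, 15.5 for Hk2 and 13.5 for Slc2a1, and -27.2 for Pfkm, -15.6 for Hk1 and -10.9 for Pfkl. The shares of 1 family add to 100%, so these 7 differences are not independent of each other.

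The 9 genes showed no call for diet. In WT-VAD against WT 0 of 9 were called by limma and 1 had an unadjusted p under 0.05, where 0.506% of all genes were called and 10.2% had such a p. Their log2 differences ran from -0.22 for Pfkl to 0.38 for Pfkp (Pfkp adjusted p = 0.457), and the diet groups of wild-type mice sat on different lanes. Pgk1 alone did not overlap, being higher in WT-VAD, where 9.41% of all genes were higher without overlap and 8.91% lower. In TRACK-VAD against TRACK 0 of 9 were called and 2 had an unadjusted p under 0.05, Slc2a1 and Hk2, where 0.155% of all genes were called and 10.5% had such a p. All 9 log2 differences were below 0, from -0.71 for Hk2 (95% interval -1.24 to -0.19; adjusted p = 0.345) and -0.40 for Slc2a1 (-0.67 to -0.12; adjusted p = 0.324) to -0.11 for Aldoa, with a median of -0.18 against -0.01 over all genes. Values of Pfkp (128 to 177 scaled FPKM in TRACK-VAD, 146 to 194 in TRACK) and of the other 8 genes overlapped between the diets, where 2.16% of all genes were higher without overlap and 2.73% lower. In lane 5 alone the differences were -0.92 for Hk2 and -0.39 for Slc2a1 (adjusted p = 0.215 and 0.271).

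The genotype effect was not shown to differ between diets. In the interaction term 0 of 9 genes were called by limma and 1, Pfkp, had an unadjusted p under 0.05, where 0.00816% of all genes were called and 8.1% had such a p. The interaction was -0.64 ± 0.22 (log2, SE) for Pfkp (adjusted p = 0.512) and -0.74 ± 0.37 for Hk2 (adjusted p = 0.63), the largest in size, and within -0.32 and 0.01 for the other genes. For the same 7 shares, the diet effect over both genotypes did not pass the exact permutation test, and ran from -3.35 points for Slc2a1 (p = 0.0857, adjusted p = 0.171) to 3.41 points for Pfkp (exact permutation p = 0.204, adjusted p = 0.272).

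**Figure D3:**
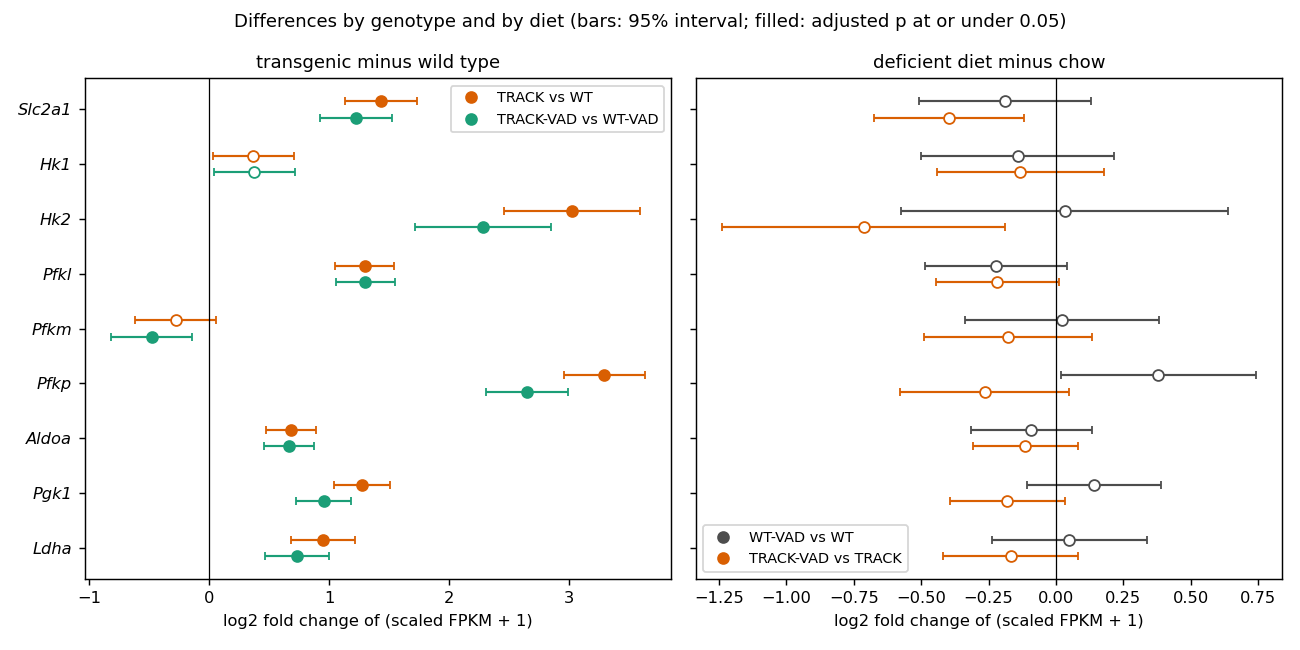
Log2 fold changes of (scaled FPKM + 1) for the 9 genes with 95% intervals, by genotype on the left (orange on chow, green on the deficient diet) and by diet on the right (grey in wild-type, orange in transgenic mice); filled points passed adjusted p 0.05. The genotype panel holds 7 filled points to the right of 0 on each diet, and the diet panel holds none.

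The SD of scaled FPKM over libraries was larger in TRACK-VAD than in the other groups for each of the 9 genes, while on the log2 scale of the test Pfkp was the exception, with an SD of 0.32 in WT-VAD and 0.21 in TRACK-VAD. All 9 genes were below the group mean in TRACK-VAD 2, with a median deviation of -0.26 (log2), and 8 of 9 were above it in TRACK-VAD 4, the only lane 6 library of the group, with a median of 0.26. TRACK-VAD 2 also had the lowest summed proximal tubule markers (33219.7 scaled FPKM, against 49215 to 73319 in the other 3 libraries), the highest tubular injury markers (8301 against 517 to 1848) and the highest macrophage and dendritic cell markers (1217 against 474 to 500.2). TRACK-VAD 1 came next in proximal tubule (49215) and injury markers (1848), and its summed erythroid markers were at 1006, against 1172 in TRACK-VAD 2 and 294 and 399 in TRACK-VAD 3 and 4. Without TRACK-VAD 2 the 7 higher calls on the deficient diet remained and all 9 genes were called, and the diet differences in transgenic mice shrank to -0.46 for Hk2, -0.09 for Ldha and 0.00 for Pfkm. With a lane term, which rests on TRACK-VAD 4, the 7 higher genes stayed called on the deficient diet (log2 fold changes from 0.86 for Aldoa to 2.93 for Pfkp).

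Marker lists of some other cells moved with genotype on both diets, while other lists held few or no calls on chow. On chow, macrophage and dendritic cell markers were higher for 10 of 12 genes (summed level 168 to 184 scaled FPKM in WT and 342 to 426 in TRACK), endothelial markers for 6 of 8 (108 to 131 and 173 to 197) and lymphocyte markers for 4 of 5 tested, with sums of 3.9 to 5.8 and 8.8 to 12.9. Of the 10 lymphocyte markers listed, 8 stayed under 1 scaled FPKM in WT and 8 in WT-VAD. Not all 5 tested could thus pass the filter through wild-type libraries, and those passing only through transgenic libraries had to differ. Of 15 proximal tubule markers, 7 were lower and 1 was higher, with a median log2 fold change of -0.78. Their summed level, led by Kap, was 67986 to 74264 in WT and 63080 to 68982 in TRACK. Lrp2 and Cubn, named after seeing their values, were among the 7 proximal tubule markers not called. On chow, 0 of 8 loop of Henle and distal tubule, 0 of 9 collecting duct and 0 of 5 podocyte markers were called. The same held for 0 of 6 erythroid markers tested, and 1 of 7 fibroblast and mural cell markers tested was higher. Summed adipocyte markers were at 756 scaled FPKM in TRACK 4 and at 76.4, 81.1 and 75.3 in TRACK 1 to 3. Tubular injury markers were higher for 3 of 6 tested on chow (460 to 599 and 606 to 879, median log2 fold change 1.56). On the deficient diet they were higher for 6 of 6 (303 to 323 and 517 to 8301, median 2.25). Of the 7 injury markers listed, 3 stayed under 1 scaled FPKM in WT and 2 in WT-VAD. Any that passed the filter only through transgenic libraries had to differ. Macrophage and dendritic cell markers were on the deficient diet higher for 11 of 12 genes (161 to 240 and 474 to 1217, median 1.39). There, endothelial markers were higher for 6 of 8 and lymphocyte markers for 4 of 5. Of 15 proximal tubule markers, 7 were lower and 1 higher on that diet (median log2 fold change -0.64). Also higher were 2 of 5 podocyte, 1 of 8 loop of Henle and distal tubule and 2 of 7 fibroblast and mural cell markers tested. That compares with 11.3% of all genes called higher on this diet. Collecting duct (0 of 9) and erythroid markers (0 of 6 tested) again held no call. The part of these cell markers in the isozyme differences was not tested.

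Beyond the 9 genes, 61 of 66 listed genes around glycolysis were tested, and 22 were higher and 4 lower in TRACK than in WT (36.1% and 6.56%, where 8.86% and 8.15% of all genes were called higher and lower). Among 14 other glycolytic enzymes tested, 9 were higher and 1 lower, with a median log2 fold change of 0.58. The largest were Pkm, pyruvate kinase M (2.14; adjusted p = 1.26e-06), Gpi1, glucose phosphate isomerase (1.94; adjusted p = 2.99e-06), and Eno1, enolase 1 (1.90; adjusted p = 2e-07). Pgam2, the muscle phosphoglycerate mutase, was the lower one (-0.52; adjusted p = 0.00966). Tpi1, triosephosphate isomerase, was at 469 scaled FPKM in WT and 534 in TRACK and was not called (0.18; adjusted p = 0.165). Of the 5 regulators of phosphofructokinase, only Pfkfb3, which makes the activator fructose-2,6-bisphosphate, was called (1.71; adjusted p = 5.67e-06).

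Genes of lactate and pyruvate fate gave 3 higher and 1 lower of 13 tested (23.1% and 7.69%). The higher ones were Slc16a3, the lactate exporter MCT4 (from 0.346 to 26.8 scaled FPKM; 4.36, adjusted p = 2.47e-09), Pdk1, which inhibits pyruvate dehydrogenase (2.14; adjusted p = 4.35e-06), and Pdp1, which reactivates it (0.46; adjusted p = 0.0456). The WT mean of Slc16a3 was under the filter level of 1 FPKM. Like Hk2, it may have passed the filter only through transgenic libraries, in which case it had to differ. Slc16a1, the transporter MCT1, was lower on chow (-0.39; adjusted p = 0.0456) and higher on the deficient diet (0.43; adjusted p = 0.0289). Its wild-type level was 60.1 on chow and 22.7 on the deficient diet (-1.38; adjusted p = 0.00115), a comparison across lanes, and its interaction did not pass the test (adjusted p = 0.3). Gluconeogenic and fructose genes gave 3 higher and 1 lower of 11 (27.3% and 9.09%). Those were the fructose transporter Slc2a5 (1.12; adjusted p = 0.0111), Pck2, the mitochondrial phosphoenolpyruvate carboxykinase (0.94; adjusted p = 0.00178), and Tkfc, triokinase (0.78; adjusted p = 0.00018), with Fbp2, muscle fructose bisphosphatase, lower (-1.02; adjusted p = 0.00787). In the branches from glycolysis 6 of 13 were higher and 1 lower (46.2% and 7.69%), led by Pygl, liver glycogen phosphorylase (0.99; adjusted p = 0.00395), Gbe1, glycogen branching enzyme (0.94; adjusted p = 0.000318), and Gpd2, mitochondrial glycerophosphate dehydrogenase (0.77; adjusted p = 0.0136).

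On the deficient diet 17 of the 61 genes were higher and 6 lower (27.9% and 9.84%, where 11.3% and 10.8% of all genes were), so the share of lower genes over all lists together was near that of all genes. The lower genes were not spread evenly, since the list of lactate and pyruvate fate held 4 higher and 4 lower of 13 tested (30.8% each). Pkm (2.01), Gpi1 (1.76), Eno1 (1.93), Slc16a3 (3.52), Pdk1 (2.01) and Pfkfb3 (0.92) were again higher, with adjusted p values from 3.73e-08 for Slc16a3 to 0.00148 for Pfkfb3. The branch list then gave 1 higher (Gbe1, 0.73) and 1 lower (Taldo1, -0.23) gene of 13, and whether that differs from chow was not tested for the list.

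**Figure D4:**
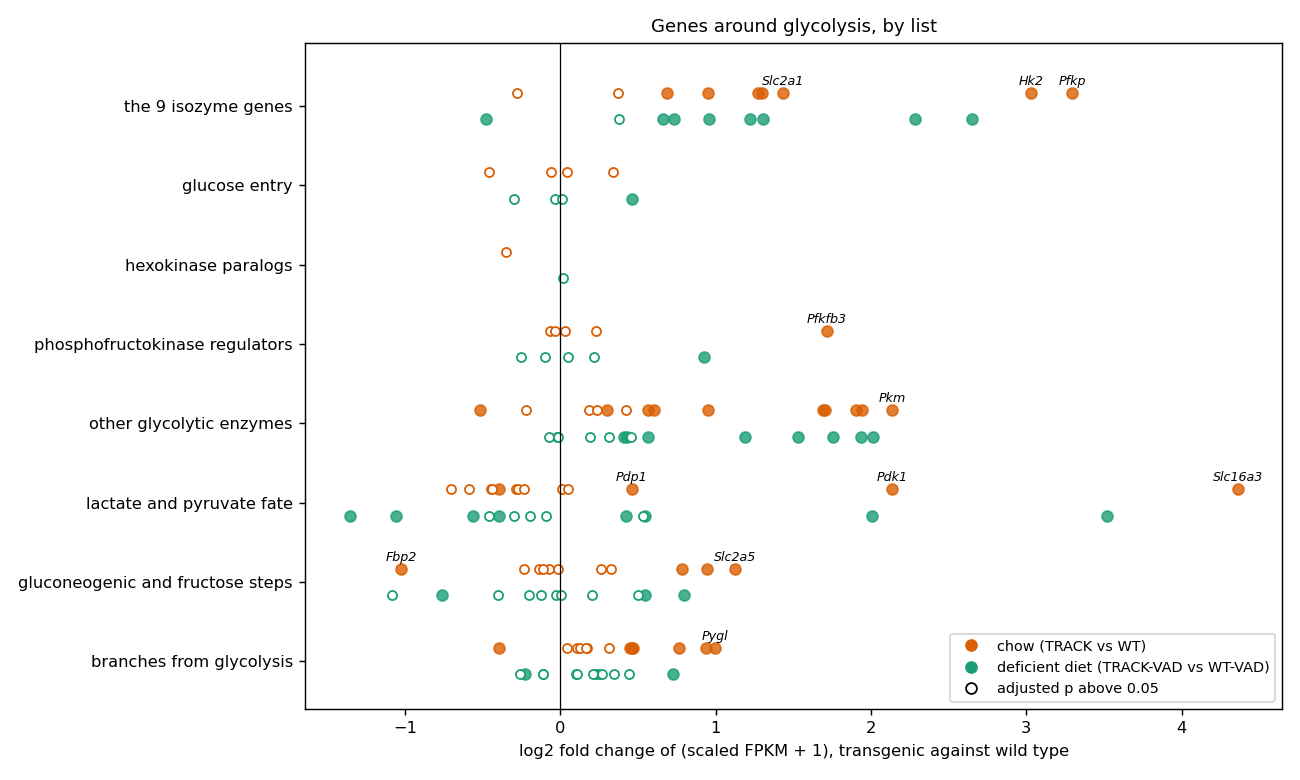
Log2 fold changes of (scaled FPKM + 1), transgenic against wild type, for each tested gene of the lists, on chow (orange) and on the deficient diet (green); filled points passed adjusted p 0.05 and called genes with large changes on chow are named where space allows. Slc16a3 lies farthest right at 4.36, and the glycolytic enzyme list holds 9 filled orange points above 0 and 1 below.

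The authors' deposited table, in which adjusted p at or under 0.05 was counted, listed 7 of the 9 genes as higher and 0 as lower in TRACK, and 7 higher and 1 lower in TRACK-VAD. The authors' deposited table listed 11.8% of all genes with an adjusted p as higher and 12.1% as lower in TRACK, and 14.7% as higher and 14% as lower in TRACK-VAD. In the authors' deposited table Hk1 had adjusted p = 0.0949 on chow and 0.064 on the deficient diet, and Pfkm 0.0973 and 0.0217. The authors' deposited table called none of the 9 genes in either diet comparison, where it called 2.41% of genes in WT-VAD against WT and 1.35% in TRACK-VAD against TRACK.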

How the data were processed

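RNA from kidney cortex was sequenced with 51-base single-end reads on a HiSeq2000, per the labels' protocols. The authors deposited FPKM values for each library. The submitters' processing notes name DESeq 1.32 and the build mm9, while the gene coordinates in the table equal GENCODE vM21 (GRCm38) for 7 of the 9 genes and differ in the end of Pfkm and Aldoa. No source used here names the aligner, the counter or the strandedness. The authors' deposited comparison tables hold log2 fold changes, p-values, a test statistic (score) and mean normalized counts (signal), and these were copied, not recomputed.

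FPKM were divided by a trimmed-mean factor for each library (30% ratio trim, 5% level trim). Genes at 1 FPKM or more in 3 or more libraries were kept, 17 of 12268 were left out because they were listed at 0 in a library but at 5 FPKM or more in another of its group and in at least 7 libraries in all, and log2(scaled FPKM + 1) was tested with limma 3.58.1 (R 4.3.3) on 4 group means, two-sided. A log2 fold change on this scale understates changes of low genes. Shares were tested by exact permutation in Python 3.11.15, and results for some genes, with 1 family's shares, are not reported here. Methods were tested on simulated data. Alternatives covered the factor, pseudocount, filter, lane, replicate number as a block, fits of 2 groups and leaving out each library. 6 sample columns matched no label and were not used.

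Named genes are the 9 genes and their paralogs, the 3 called genes with the largest change in each list, genes called in opposite directions, and the 3 tested genes most correlated with each of the 9. Those chosen after seeing their values are Tpi1, Pgam2, Gbe1 and Taldo1 on the deficient diet, Lrp2 and Cubn. The genes and lists were chosen with earlier results of these data known. Reads cannot be assigned between overlapping genes without strand, which touches Aldoa (Fam57b), Pfkp (Pitrm1), Pfkm (Senp1), Hk1 (Hk1os), Hk2 (Gm17034) and Slc2a1 (Gm12867), nor always between Aldoa, Pgk1 and Ldha and the 2 named pseudogenes of each. In GENCODE vM21 another protein-coding gene named Aldoa lies on the same strand within the deposited Aldoa locus, and Gm26513 within that of Pfkm. Strand would not separate these, so the Aldoa row may mix both Aldoa genes. Sequences come from RefSeq, GRCm38.p6. Replicate numbers were not used as pairs in the main fit. The correlation of same-numbered deviations was over 0.1 in 4 of 13 pairs (from -0.14 to 0.38). Differently numbered libraries were not compared, so this cannot show whether libraries were paired.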

Additional observations from a re-analysis of the deposited data

Results flagged for a closer look

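Of 50 sets of 4 library values examined, 3 held a library far from the other 3, where chance gives about 1 in 20. Hk2 in TRACK was at 5.693 scaled FPKM in library 1 and from 8.98 to 9.50 in the others. Aldoc in TRACK-VAD was at 26.83 in library 3 and from 19.8 to 20.5 in the others. Ldhb in TRACK was at 808.2 in library 1 and from 713 to 725 in the others.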

How the results depend on the processing

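The 7 genes called higher in each genotype comparison kept direction and call in every alternative run, and so did the 7 share differences by genotype. Depth is unknown from FPKM, and groups of 3 or 4 libraries limit what small differences can show. The cause of the changes below was not tested. Leaving out each library in turn, the genes called numbered 1005 to 1880 for TRACK against WT (2084 with all), 1570 to 3453 for TRACK-VAD against WT-VAD (2709), 5 to 44 for WT-VAD against WT (62), 8 to 56 for TRACK-VAD against TRACK (19) and 0 to 7 for the interaction (1). With only the 2 groups fitted they numbered 3440, 568, 114 and 3 in the first 4 of these. With a lane term they were 221 for TRACK-VAD against WT-VAD, 0 for WT-VAD against WT, 56 for TRACK-VAD against TRACK and 0 for the interaction, and in lane 5 alone 33 for TRACK-VAD against TRACK. A pseudocount of 0.1 gave 10 for TRACK-VAD against TRACK and 0 for the interaction, no filter on low values 40 for WT-VAD against WT, and no scaling 4 for the interaction.

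Other genes of the families were recomputed for the genotype comparisons alone, where their values are given, a limit set after seeing the results. Changes of sign concerned only uncalled log2 differences. With the lane term WT-VAD against WT became -0.79 for Hk2, -0.28 for Pfkm, -0.21 for Pgk1 and -0.37 for Ldha, the interaction 0.025 for Pfkm, 0.17 for Aldoa and 0.10 for Ldha, and TRACK-VAD against WT-VAD -0.047 for Hkdc1 and 0.049 for Slc2a2. Without scaling they were 0.10 for Slc2a4 in TRACK against WT, 0.018 for Ldhb and 0.18 for Slc2a2 in TRACK-VAD against WT-VAD, and 0.012 for the Aldoa interaction. Leaving out single libraries gave, in WT-VAD against WT, -0.051 to 0.11 for Hk2, -0.059 to 0.063 for Pfkm and -0.027 to 0.16 for Ldha. The interaction ran from -0.091 to 0.13 for Hk1, -0.076 to 0.11 for Pfkl and -0.088 to 0.040 for Aldoa, and Pfkm in TRACK-VAD against TRACK from -0.28 to 0.0047. Slc2a2 ran from -0.14 to 0.19 in TRACK against WT and from -0.062 to 0.00031 in TRACK-VAD against WT-VAD, where Hkdc1 ran from -0.036 to 0.083 and Slc2a4 from -0.12 to 0.27. The calls lost for Pfkm on the deficient diet are given with its values (leaving out single libraries, -0.58 to -0.30).

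Of the diet differences in shares, lane 5 alone gave 0.498 points for Pfkl, 0.418 for Pfkm, -0.916 for Pfkp and -4.49 for Ldha. Lane 5 holds no WT-VAD library, so these values compare TRACK-VAD with TRACK only and not both genotypes. The diet difference of Pfkm as a log2 ratio to the other subunits was 0.0048. Leaving out single libraries gave diet differences of -1.35 to 0.833 for Pfkm, -0.971 to 0.693 for Ldha and 2.14 to 4.15 for Hk1, which then passed once.

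With replicate number as a block, the genes called were 7 for TRACK-VAD against TRACK and 0 for the interaction. Slc2a2 in TRACK against WT was then -0.0053 and Slc2a4 in TRACK-VAD against WT-VAD -0.034, and no call of the 9 genes changed.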

Other observations

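Over the 14 libraries, tested genes among those whose levels followed single isozyme genes most closely (Pearson's r of log2 values, as a description) were 2610528A11Rik (0.993) and Ndufa4l2 (0.991) for Pfkp, and Pkm (0.996), Eno1 (0.994) and Gpi1 (0.993) for Pfkl. For Hk2 they were Ero1l, Aldh1l2 and Cox4i2, for Slc2a1 Adm2, Stc2 and Cox4i2, for Pgk1 Fam162a, Aldh1l2 and Gpi1, for Ldha Gpi1, Bsg and Apoc3, and for Aldoa Mas1, Eno1 and Gpi1. For Hk1 they were Tmc4, Umod and Rhox6, and for Pfkm Pdzk1 and Tinag. The libraries fall into 2 genotypes, so genes that differ by genotype reach high values together.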
